A study of Arabidopsis thaliana with 32 samples.

Results

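Chlorophyll, heme, siroheme and the bilin pigment of phytochrome are tetrapyrroles that plants make in the chloroplast from glutamate. The genes described here are 34 Arabidopsis genes for that pathway, from 5-aminolevulinate (ALA) to heme and chlorophyll, with a few genes for chlorophyll turnover. They were chosen by locus identifier from a list and not by their values, though with earlier results of these data known. All 34 were found among the 21525 genes of the data and passed the filter on low values. By role they fall into 6 genes for ALA synthesis, 7 between ALA and protoporphyrin, 5 for magnesium chelatase, 9 for the later steps of chlorophyll synthesis, 4 for heme, bilin and siroheme and 3 for chlorophyll turnover.

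RNA was sequenced from leaves of wild-type Arabidopsis thaliana (Col-0) that were treated for 3 h either with light that photoinhibits photosystem I (PSI-PI) or with growth light (GL), in air with 0, 100, 400 or 1000 ppm CO2. Each of the 8 groups had 4 replicates (32 samples), and all plants were 6 to 7 weeks old and had been grown in an 8 h photoperiod. Light intensities are in µmol photons per m2 and s. The PSI-PI cycle, repeated throughout, held 30 s of growth light (intensity 100) and 3 rounds of weak red light (intensity 35, wavelength 660 nm) for 5 s and a pulse of intensity 1000 for 1 s, whereas GL plants stayed in growth light. The 2 treatments therefore differed in colour and intensity of light as well as in the state of photosystem I, and these cannot be told apart in the comparison of PSI-PI with GL.

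ALA is made from glutamyl-tRNA, and its synthesis sets how much enters the pathway. At protoporphyrin the pathway splits, with magnesium chelatase leading to chlorophyll and ferrochelatase leading to heme. Protochlorophyllide, a late intermediate, needs light and the enzyme protochlorophyllide oxidoreductase (POR) to be reduced, and free intermediates are phototoxic, so plants regulate many of these genes by light and by the circadian clock. Chlorophyll breakdown begins with reduction of chlorophyll b and removal of magnesium, and is known from senescence and from leaves kept in the dark.

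The deposited values are normalized counts, and their totals were 18494378 to 31211055 per sample, highest at 100 ppm. Values were compared as log2 of the normalized count plus 1 with limma, in 1 model of all 8 groups (24 residual degrees of freedom), with two-sided tests and Benjamini-Hochberg adjustment over 21469 genes. A log2 difference below is the difference of 2 group means of these log2 values, which is the log2 fold change. A gene is said to have risen or fallen where the adjusted p was under 0.05, and to be a differentially expressed gene (DEG) where its log2 fold change was also at least 1 in size. The leaf markers RBCS1A, RCA, LHCB1.3 and GAPA were at 19552 normalized counts or more in every sample. Of the floral markers, PI was at 0 in 16 of 32 samples and AP3 was low in all, at 1.07 to 10.3. Root markers and the senescence marker SAG12 were not analysed here. In whole leaves, fewer cells of a type and less RNA per cell cannot be told apart. Of the 32 samples, 8 were on balance nearer to another group than to their own, PSI-PI replicates 1, 3 and 4 at 0 ppm included. Among the 8, GL replicate 1 at 1000 ppm changed the counts at 1000 ppm in GL (2 genes with it, 13 without it). The results that rest on this replicate are given with and without it. The labels do not say whether replicates came from separate plants, so the tests measure the spread between these samples.

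**Figure D1:**
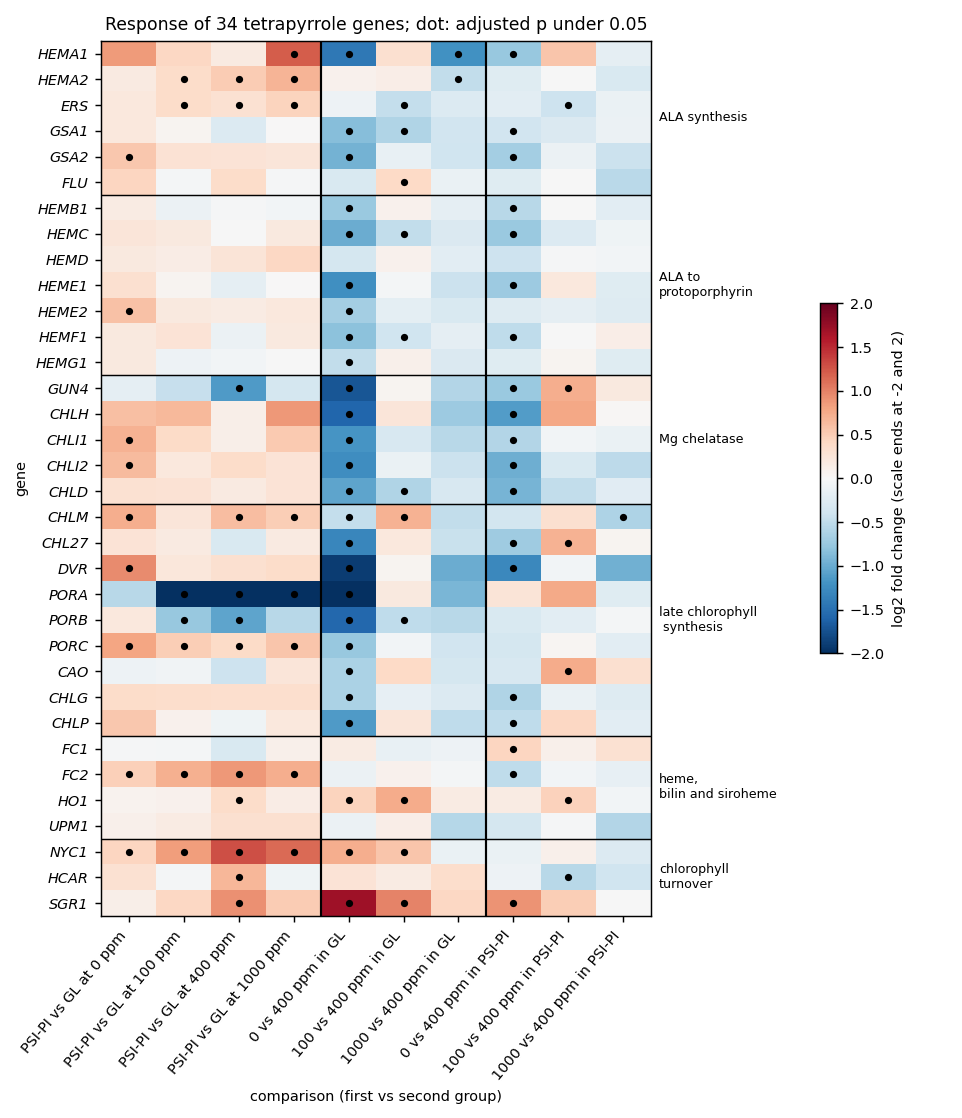
Log2 fold changes of the 34 genes (vertical axis, ordered by role) in the 10 comparisons (horizontal axis, the first group against the second). A black dot marks an adjusted p under 0.05, and 32 of 34 genes have at least 1 dot; the colours end at -2 and 2, so PORA, which reached -2.93, is drawn at the end of the scale.

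The first question was how PSI-PI treatment changed these genes in ambient air. At 400 ppm CO2, 9 of the 34 genes rose in PSI-PI-treated leaves relative to GL and 3 fell, where 13.8% of all tested genes rose and 11% fell. The 3 genes that fell were PORA (AT5G54190) and PORB (AT4G27440), which reduce protochlorophyllide, and GUN4 (AT3G59400), which acts with magnesium chelatase, and all 3 were DEGs, as was NYC1 (AT4G13250) among those that rose (2.91% and 3.28% of all tested genes were lower and higher DEGs). The genes that rose included all 3 chlorophyll turnover genes, NYC1, SGR1 (AT4G22920) and HCAR (AT1G04620), and the heme branch genes FC2 (AT2G30390) and HO1 (AT2G26670). The 7 genes between ALA and protoporphyrin had log2 fold changes of -0.18 to 0.25 and did not pass. In 9 of the 34 genes all PSI-PI leaves were above all GL leaves and in 5 all were below, against 17.8% and 16.4% of all tested genes. The median log2 fold change was 0.18 over the 34 genes and -0.01 over all tested genes.

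Arabidopsis has 3 POR genes, which are known to differ in when they are expressed. PORA is known from etiolated seedlings, PORB from seedlings and green leaves, and PORC (AT1G03630) from illuminated green leaves. PORB had 16029.7, 8561, 12623 and 11090.2 normalized counts in PSI-PI-treated leaves, against 25065, 24370.5, 24231 and 24508 in GL. Every PSI-PI leaf was below every GL leaf, and the log2 difference was -1.06 ± 0.19 (limma SE, adjusted p = 0.000158). PORC moved the other way, with 6631, 5894, 6663 and 6425 in PSI-PI and 4012, 5134, 5037 and 5543 in GL and a log2 difference of 0.39 ± 0.13 (limma SE, adjusted p = 0.0329). The PSI-PI leaves were all higher than the GL leaves, but the difference was small, and the call was lost without GL replicate 1 or 3 or PSI-PI replicate 1, 3 or 4 (adjusted p up to 0.144). PORA was near the lower limit of the data, with 2.36, 0, 1.01 and 2.06 in PSI-PI and 25.3, 13.8, 14.7 and 10.5 in GL. The groups did not overlap, and the fitted log2 difference was -2.93 ± 0.70 (limma SE, adjusted p = 0.00252), a size that depends on the 1 added to such low values. Of the 31-base stretches of the PORA messenger RNA, 18 also occur in that of PORB, which is far higher. Whether reads of PORB were counted for PORA was not tested.

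PORA and PORB, which are related genes and not independent cases, fell, and NYC1, described next, rose. All 3 hold the evening element in the 250 bases before their start, and its part in these changes was not tested. The evening element, AAAATATCT on either strand, is bound by clock proteins in Arabidopsis. It was found before 2.56% of the 21339 genes of the data that have an annotated position and before 3 of the 34 genes described here, which are these 3. The sequences are from RefSeq TAIR10.1, read in the direction of the gene, with the evening element and the letters CCAATC in capitals; the stretch of PORB stops where another gene begins. The letters CCAATC were searched on both strands too and stood before 10.6% of genes and before GSA2 (AT3G48730), GUN4 and PORB among the 34.
PORA, chr5:21992815-21993064, minus strand: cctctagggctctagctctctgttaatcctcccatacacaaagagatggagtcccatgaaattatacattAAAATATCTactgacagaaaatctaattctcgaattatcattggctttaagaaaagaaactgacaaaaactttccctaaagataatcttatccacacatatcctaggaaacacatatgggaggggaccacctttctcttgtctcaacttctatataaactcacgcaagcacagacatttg
PORB, chr4:13725360-13725545, plus strand: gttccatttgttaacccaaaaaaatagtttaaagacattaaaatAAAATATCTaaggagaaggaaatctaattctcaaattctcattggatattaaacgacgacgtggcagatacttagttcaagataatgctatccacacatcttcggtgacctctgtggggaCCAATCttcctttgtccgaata
NYC1, chr4:7687007-7687256, minus strand: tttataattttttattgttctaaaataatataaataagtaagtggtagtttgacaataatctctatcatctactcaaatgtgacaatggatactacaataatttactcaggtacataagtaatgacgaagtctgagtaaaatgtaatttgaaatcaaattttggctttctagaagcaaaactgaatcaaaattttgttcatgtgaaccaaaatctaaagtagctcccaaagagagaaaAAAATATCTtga
The evening element began 180 bases before the start of PORA, 142 before PORB and 12 before NYC1. A match of letters is a description of the window and not of binding. The G-box, CACGTG, stood before 7.24% of genes and before 5 of the 34, which were ERS (AT5G64050), HEMD (AT2G26540), CHL27 (AT3G56940), CAO (AT1G44446) and FC2. The CCA1 site, AAAAATCT, was searched as well and stood before 6.72% of genes. Among the 34 it stood before HEMA2, FLU, GUN4 and CHL27, and not before PORA, PORB or NYC1. PORB overlaps a gene on the opposite strand, as do PORC and GUN4, and 16 of the 34 genes overlap another annotated gene in all. Whether the counting used strand is not given in the sources used here, so part of the reads of these genes may belong to the neighbour.

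**Figure D2:**
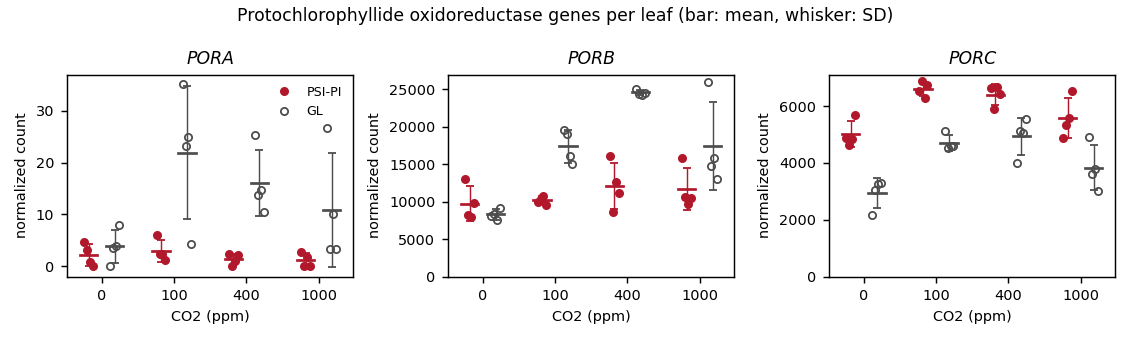
Normalized counts (vertical axes, linear) of PORA, PORB and PORC in each leaf by CO2 level (horizontal axes), with PSI-PI as filled points left of GL as open points; bars are means and whiskers SD, n = 4. At 400 ppm PORB is at 8561 to 16030 in PSI-PI and at 24231 to 25065 in GL, while PORC is at 5894 or more in PSI-PI and at 5543 or less in GL.

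NYC1 encodes a chlorophyll b reductase, the enzyme that starts the conversion of chlorophyll b to chlorophyll a. It had 8616, 7625, 8839 and 9074 normalized counts in PSI-PI and 3367, 3517, 3759 and 3377 in GL at 400 ppm. The log2 difference of 1.28 ± 0.10 (limma SE, adjusted p = 9.37e-10) had the lowest adjusted p of the 34 genes. HCAR, which carries out the next step of that conversion, had 563 ± 31 in PSI-PI and 353 ± 18.6 in GL (SD, n = 4), a log2 difference of 0.67 ± 0.14 (limma SE, adjusted p = 0.0006). SGR1, the magnesium dechelatase of senescing leaves, had 493, 613, 543 and 582 in PSI-PI and 300.5, 323, 286 and 272 in GL. Its leaves did not overlap either, and the log2 difference was 0.91 ± 0.22 (limma SE, adjusted p = 0.00226).

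GUN4 binds protoporphyrins and activates magnesium chelatase. It had 1523, 1191, 1745 and 1685 normalized counts in PSI-PI-treated leaves, against 3819, 2837, 3733 and 3086 in GL, a log2 difference of -1.14 ± 0.24 (limma SE, adjusted p = 0.000713). The chelatase subunits themselves did not pass the test at 400 ppm, with log2 fold changes of 0.12 for CHLH (AT5G13630), 0.11 for CHLI1 (AT4G18480), 0.37 for CHLI2 (AT5G45930) and 0.17 for CHLD (AT1G08520). CHLM (AT4G25080), the methyltransferase that follows the chelatase, rose by 0.62 ± 0.15 (limma SE, adjusted p = 0.00313) on the log2 scale.

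On the heme branch, FC2 is the ferrochelatase of green tissue, FC1 (AT5G26030) is found in all tissues and HO1 opens the ring of heme to make bilins. FC2 had 4913, 5127, 5715 and 5357 in PSI-PI and 2460.3, 2708, 3262 and 3237 in GL, and every PSI-PI leaf was above every GL leaf. The log2 difference was 0.86 ± 0.13 (limma SE, adjusted p = 2.54e-05), and that of HO1 was 0.37 ± 0.09 (limma SE, adjusted p = 0.00271). FC1 did not pass, with 1018 ± 126 in PSI-PI and 1251 ± 116 in GL (SD, n = 4). Among the genes for ALA synthesis, HEMA2 (AT1G09940), a paralog of the glutamyl-tRNA reductase gene HEMA1 (AT1G58290), rose by 0.50 ± 0.10 (limma SE, adjusted p = 0.000372). ERS, which charges glutamate onto its tRNA, rose by 0.30 ± 0.10 (limma SE, adjusted p = 0.023), a call that was lost without GL replicate 1 or 3 or PSI-PI replicate 3 (adjusted p up to 0.101). HEMA1 did not pass at 400 ppm, with 5193, 4399, 6570.1 and 7191 in PSI-PI and 4359.7, 4793, 6303 and 4935 in GL. Under quantile normalization 7 of the 34 genes rose at 400 ppm and 6 fell. The summed leaf markers overlapped between PSI-PI and GL at 400 ppm, as did RBCS1A and LHCB1.3. RCA was at 267300 to 343526 in PSI-PI and 104266 to 160538 in GL. GAPA was at 43716.5 to 61043.9 in PSI-PI and 21201.9 to 32720.1 in GL. The 2 phloem markers SUC2 and APL summed to 3332 to 3664 in PSI-PI and 3802 to 4126 in GL, but did not move alike. SUC2 was at 2979 to 3349 in PSI-PI and 3591 to 3855 in GL. APL overlapped, at 267 to 366 in PSI-PI and 211 to 271 in GL. The part of these markers was not tested.

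At the other CO2 levels the same question was asked within each level, so these 4 comparisons share no samples. Of the 34 genes, 3 (PORC, FC2 and NYC1) rose at all 4 CO2 levels, with the limits given for 0 ppm in the next paragraph, and 3 more (HEMA2, ERS and CHLM) rose at 3 of them. At 0 ppm 9 genes rose and 0 fell, against 4.51% and 2.53% of all tested genes. At 100 ppm 5 rose and 2 fell, against 6.64% and 3.13%. At 1000 ppm 7 rose and 1 fell, against 6.89% and 3.57%. No gene fell in 1 of the comparisons and rose in another. The median log2 fold change over the 34 genes came to 0.29 at 0 ppm, 0.20 at 100 ppm and 0.24 at 1000 ppm, where that of all tested genes was between -0.01 and 0.00 at each level.

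In air without CO2, 5 of the 9 genes that rose with PSI-PI belong to the chlorophyll branch, the chelatase subunit genes CHLI1 and CHLI2 with CHLM, DVR (AT5G18660) and PORC. The others were GSA2, HEME2 (AT2G40490), FC2 and NYC1. In 11 of the 34 genes all PSI-PI leaves were above all GL leaves and in 0 all were below, against 4.86% and 3.31% of all tested genes. DVR, which reduces the vinyl group of divinyl intermediates, had 1067, 929, 798 and 1579.6 normalized counts in PSI-PI and 510.0, 464, 539 and 719 in GL, a log2 difference of 0.94 ± 0.27 (limma SE, adjusted p = 0.0336). CHLI1 had 6012, 5543, 6177 and 6912 in PSI-PI and 3126, 3529, 4729 and 3957 in GL, a log2 difference of 0.70 ± 0.19 (limma SE, adjusted p = 0.0253). CHLI2, another gene for the same subunit, had 795, 678, 832 and 1124 in PSI-PI and 489.7, 539.7, 515 and 637 in GL, a log2 difference of 0.63 ± 0.16 (limma SE, adjusted p = 0.0175). In all 3 genes the leaves of the 2 treatments did not overlap. PORC had 4875, 4647, 4827 and 5700.1 in PSI-PI and 2149, 3034, 3239.8 and 3306 in GL, with a log2 difference of 0.79 ± 0.13 (limma SE, adjusted p = 0.000494). NYC1 was 7782 ± 469 in PSI-PI and 5811 ± 537 in GL (SD, n = 4). FC2 was 3742 ± 551 in PSI-PI and 2696 ± 365 in GL, and its leaves overlapped. None of the 34 was a DEG in limma here, where 1.02% and 0.326% of all tested genes were higher and lower DEGs. The summed level of the 4 leaf markers was 523834 to 897438 in PSI-PI and 305332 to 505852 in GL. Taken singly, GAPA did not overlap, while RBCS1A, RCA and LHCB1.3 did. Their part in the result was not tested. Without GL replicate 1 the count was 3 genes and without PSI-PI replicate 4 it was 4. The calls of CHLM, PORC and NYC1 held when any 1 leaf was dropped, while that of DVR was lost without GL replicate 1, 2 or 3 or PSI-PI replicate 1 or 4 (adjusted p up to 0.106) and that of FC2 without GL replicate 1 or 4 or PSI-PI replicate 2, 3 or 4 (up to 0.107). A fit of only the 8 samples kept 0 of the 9 calls and called HEMA1 alone, and quantile normalization did not keep CHLI1, FC2 and NYC1.

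HEMA1 encodes the main glutamyl-tRNA reductase of leaves, the first enzyme that is committed to tetrapyrroles. At 0 ppm it had 3155, 3256, 3201 and 4002 in PSI-PI and 1839, 1726, 1947 and 2004 in GL. The leaves did not overlap, but the log2 difference of 0.85 ± 0.27 (limma SE, adjusted p = 0.0519) did not pass. At 1000 ppm it had 4415, 4559.8, 4844 and 6849 in PSI-PI and 5426, 1107, 1927 and 1971 in GL, and 1 GL leaf, replicate 1, lay among the PSI-PI leaves. The log2 difference was 1.22 ± 0.27 (limma SE, adjusted p = 0.00329), and without that leaf it was 1.66 (adjusted p = 1.6e-06).

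At 100 ppm PORB and PORA fell and PORC rose, as at 400 ppm. In 9 of the 34 genes all PSI-PI leaves were above all GL leaves and in 1, PORB, all were below, against 12% and 7.5% of all tested genes. PORA was the 1 DEG, against 0.796% lower DEGs among all tested genes. PORB had 10005, 10404, 10732 and 9590.0 in PSI-PI, against 19562, 18964, 16019 and 15048 in GL, all PSI-PI leaves below all GL leaves, and the log2 difference was -0.77 ± 0.19 (limma SE, adjusted p = 0.0109). PORC had 6513, 6873, 6300.3 and 6748 in PSI-PI and 5129, 4519, 4587 and 4598 in GL, with a log2 difference of 0.49 ± 0.13 (limma SE, adjusted p = 0.0177). PORA had 6.09, 2.35, 2.28 and 1.18 in PSI-PI and 35.2, 23.2, 25 and 4.3 in GL, where 1 GL leaf overlapped, and its fitted log2 difference was -2.37 ± 0.70 (limma SE, adjusted p = 0.0292). The call of PORA was lost without any 1 of GL replicates 1, 2 and 3 or PSI-PI replicates 2, 3 and 4 (adjusted p up to 0.111), and those of PORC and HEMA2 without GL replicate 2 (0.0504 and 0.0561). FC2 was 5081 ± 514 in PSI-PI and 3091 ± 338 in GL, and NYC1 was 9188 ± 537 in PSI-PI and 5152 ± 346 in GL (SD, n = 4 each). Both rose, with log2 differences of 0.72 ± 0.13 (limma SE, adjusted p = 0.00115) for FC2 and 0.83 ± 0.10 (limma SE, adjusted p = 1.5e-05) for NYC1. The leaf markers summed to 1485149 to 2025373 in PSI-PI and 1281463 to 1419249 in GL and the 2 phloem markers to 4339.9 to 4775 in PSI-PI and 3660.4 to 4335 in GL, and their part was not tested. Taken singly, LHCB1.3, SUC2 and APL overlapped, while RBCS1A, RCA and GAPA did not. Without GL replicate 2 the count was 4 of 34, and under quantile normalization 3 rose and 2 fell.

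At 1000 ppm NYC1, HEMA1 and PORA were DEGs, against 1.86% higher and 0.759% lower DEGs among all tested genes. In 4 of the 34 genes all PSI-PI leaves were above all GL leaves and in 1 all were below, against 9.11% and 6.9%. NYC1 had the lowest adjusted p again, with 6294, 7449, 7487 and 6997 in PSI-PI and 3914, 2646, 3091 and 3299 in GL and a log2 difference of 1.13 ± 0.10 (limma SE, adjusted p = 6.74e-08). FC2 had 4024, 4563, 4703 and 5549.6 in PSI-PI and 3639, 2608, 2763 and 2389 in GL, a log2 difference of 0.73 ± 0.13 (limma SE, adjusted p = 0.000515). PORB had 15786, 10608, 9715 and 10489 in PSI-PI and 26007, 14794, 15800.2 and 13025 in GL and did not pass (adjusted p = 0.0625). In this gene GL replicate 1 was again the highest GL leaf, and the leaves overlapped. PORA had 2.75, 0, 1.78 and 0 in PSI-PI and 26.7, 3.28, 10.08 and 3.23 in GL, a fitted log2 difference of -2.27 ± 0.70 (limma SE, adjusted p = 0.0352) that was lost without GL replicate 1 or 3 or PSI-PI replicate 2 or 4 (adjusted p up to 0.137). CHLM rose by 0.50 ± 0.15 (limma SE, adjusted p = 0.0338) and kept its call only without GL replicate 1 among the 8 left-out leaves (adjusted p up to 0.155 without another). Without GL replicate 1, 13 genes rose and 0 fell. The genes that rose then were HEMA1, HEMA2, ERS, HEMD, CHLH, CHLI1, CHLI2, CHLM, DVR, PORC, CAO, FC2 and NYC1. Under quantile normalization of all samples 6 rose and 2 fell, and a fit of only the 8 samples called 3.

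To ask if PSI-PI acted unequally at the CO2 levels, its effect at 0, 100 and 1000 ppm was set against that at 400 ppm in 3 interaction contrasts, which share the 400 ppm samples. PORB and NYC1 were the 2 genes that passed, both between 0 and 400 ppm, where 3% of all tested genes passed. The PSI-PI response of PORB was 0.21 ± 0.19 at 0 ppm and -1.06 ± 0.19 at 400 ppm on the log2 scale (SE), a difference of 1.27 ± 0.27 (limma SE, adjusted p = 0.00728). That of NYC1 was 0.42 ± 0.10 at 0 ppm and 1.28 ± 0.10 at 400 ppm, a difference of -0.86 ± 0.14 (limma SE, adjusted p = 0.000682). Both calls held when any 1 of the 16 leaves was dropped. With PSI-PI replicate 1 at 0 ppm left out, SGR1 passed as well (-1.03). Between 100 and 400 ppm 0 of 34 genes passed in limma, 3 had an unadjusted p under 0.05, and 0.0466% of all tested genes passed. Between 1000 and 400 ppm 0 of 34 and 0% of all genes passed in limma, with an unadjusted p under 0.05 in 5 of the 34.

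The next question was how the CO2 level itself changed these genes in growth light. The comparisons of 0, 100 and 1000 ppm within a light treatment share their 400 ppm samples, and they share samples with the comparisons of PSI-PI with GL. In GL, 23 of the 34 genes fell at 0 ppm CO2 relative to 400 ppm and 3 rose, where 16.6% of all tested genes fell and 17.2% rose. All 5 magnesium chelatase genes and all 9 genes for later chlorophyll synthesis fell, as did 6 of the 7 genes between ALA and protoporphyrin and 3 of the 6 for ALA synthesis. The 3 genes that rose were SGR1 and NYC1, listed under chlorophyll turnover, and HO1, which opens the ring of heme. Of these, 12 genes that fell and SGR1 were DEGs, against 5.68% and 4.49% of all tested genes. The median log2 fold change was -0.75 over the 34 genes and 0.00 over all tested genes, and every leaf at 0 ppm was below every leaf at 400 ppm in 23 of the 34 genes and above in 3, against 15.7% and 16.3% of all tested genes. The count of calls was 25 or 26 when any 1 leaf was dropped.

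HEMA1 had 1839, 1726, 1947 and 2004 normalized counts at 0 ppm, against 4359.7, 4793, 6303 and 4935 at 400 ppm, a log2 difference of -1.43 ± 0.27 (limma SE, adjusted p = 0.000229). Its paralog HEMA2 did not pass (0.09, adjusted p = 0.525). GSA1 (AT5G63570) and GSA2 encode the aminotransferase that makes ALA, and both fell, with log2 differences of -0.85 ± 0.13 (limma SE, adjusted p = 2.53e-05) for GSA1 and -0.94 ± 0.14 (limma SE, adjusted p = 1.62e-05) for GSA2. ERS and FLU (AT3G14110), a repressor of ALA synthesis, did not pass. Of the uroporphyrinogen decarboxylase genes, HEME1 (AT3G14930) had 901, 736, 664 and 822 at 0 ppm and 1744, 1738, 1762 and 2053 at 400 ppm, a log2 difference of -1.23 ± 0.18 (limma SE, adjusted p = 1.41e-05), and that of HEME2 was -0.69 ± 0.16 (limma SE, adjusted p = 0.00176). HEMB1 (AT1G69740) and HEMC (AT5G08280), which join ALA into porphobilinogen and a linear tetrapyrrole, fell (adjusted p = 0.00153 and 4.2e-05 in limma), HEMB1 with a log2 fold change of -0.74, and so did HEMF1 (AT1G03475) and HEMG1 (AT4G01690), the oxidases that end in protoporphyrin, with log2 fold changes of -0.82 and -0.49. HEMD, which closes the ring to uroporphyrinogen III, was the 1 gene of this segment that did not pass, at 472 ± 99.7 at 0 ppm and 593 ± 42.3 at 400 ppm (SD, n = 4).

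For magnesium chelatase, CHLH, the large porphyrin-binding subunit, had 8019, 3053, 6091 and 5339.8 at 0 ppm and 14636, 14436, 17593 and 17719 at 400 ppm. The spread at 0 ppm was wide, but the groups did not overlap, and the log2 difference was -1.59 ± 0.34 (limma SE, adjusted p = 0.000684). GUN4 had 1359, 753, 1115 and 955 at 0 ppm and 3819, 2837, 3733 and 3086 at 400 ppm, a log2 difference of -1.71 ± 0.24 (limma SE, adjusted p = 8.45e-06). The ATPase subunit genes fell too, with log2 differences of -1.17 ± 0.19 (limma SE, adjusted p = 5.19e-05) for CHLI1 and -1.25 ± 0.16 (limma SE, adjusted p = 4.13e-06) for CHLI2, and that of CHLD, the third subunit, was -1.06 ± 0.23 (limma SE, adjusted p = 0.000905). Every leaf at 0 ppm was below every leaf at 400 ppm for each of these 5 genes.

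In the later steps, DVR had 510.0, 464, 539 and 719 at 0 ppm and 1698, 2179, 2019 and 2434 at 400 ppm, a log2 difference of -1.91 ± 0.27 (limma SE, adjusted p = 1.21e-05). PORB had 8087, 8392, 7476 and 9139 at 0 ppm and 25065, 24370.5, 24231 and 24508 at 400 ppm, a log2 difference of -1.57 ± 0.19 (limma SE, adjusted p = 1.82e-06), the lowest adjusted p of the 34 genes in this comparison. CHL27, a subunit of the cyclase that closes the fifth ring, had 13696, 8840.4, 12728 and 12175 at 0 ppm and 25476, 26576, 31916 and 32239.8 at 400 ppm, a log2 difference of -1.30 ± 0.23 (limma SE, adjusted p = 9.41e-05). In these 3 genes every leaf at 0 ppm was below every leaf at 400 ppm. CHLP (AT1G74470), the geranylgeranyl reductase that makes the phytol tail, had 10358, 7993, 10584 and 11944 at 0 ppm and 21202, 22029, 22827 and 23017 at 400 ppm, a log2 difference of -1.14 ± 0.18 (limma SE, adjusted p = 2.98e-05). PORC, CAO and CHLG (AT3G51820), the chlorophyll synthase that attaches the tail, had log2 fold changes of -0.76, -0.63 and -0.63 and fell as well. PORA had 0, 3.49, 3.83 and 7.88 at 0 ppm and 25.3, 13.8, 14.7 and 10.5 at 400 ppm and a fitted log2 difference of -2.12 ± 0.70 (limma SE, adjusted p = 0.0201), lost without GL replicate 1 at 0 ppm or at 400 ppm (adjusted p up to 0.0971). CHLM had the smallest log2 fold change of the 9, -0.47 ± 0.15 (limma SE, adjusted p = 0.018), and lost its call without GL replicate 2 at 0 ppm (adjusted p = 0.0606).

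Of the genes that rose, SGR1 had 783, 1208, 936 and 942 at 0 ppm and 300.5, 323, 286 and 272 at 400 ppm, a log2 difference of 1.69 ± 0.22 (limma SE, adjusted p = 3.04e-06). NYC1 had 5244, 6394, 6123 and 5484 at 0 ppm, against 3367, 3517, 3759 and 3377 at 400 ppm, a log2 difference of 0.73 ± 0.10 (limma SE, adjusted p = 8.22e-06). HO1 was 2829 ± 166 at 0 ppm and 2071 ± 95.2 at 400 ppm (SD, n = 4), a log2 difference of 0.45 ± 0.09 (limma SE, adjusted p = 0.000348). In each of the 3 the leaves did not overlap. FC1, FC2, UPM1 (AT5G40850) and HCAR did not pass. The summed level of the 4 leaf markers was 305332 to 505852 at 0 ppm and 904388 to 956968 at 400 ppm in GL, all leaves lower at 0 ppm. Taken singly, RBCS1A and LHCB1.3 did not overlap, while RCA, at 83410 to 157482 and 104266 to 160538, and GAPA did. The 3 guard cell markers, KAT1, MYB60 and FAMA, summed to 476 to 575 at 0 ppm and 659 to 733 at 400 ppm. Of these, KAT1 and MYB60 overlapped and FAMA did not. The part of these markers was not tested.

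**Figure D3:**
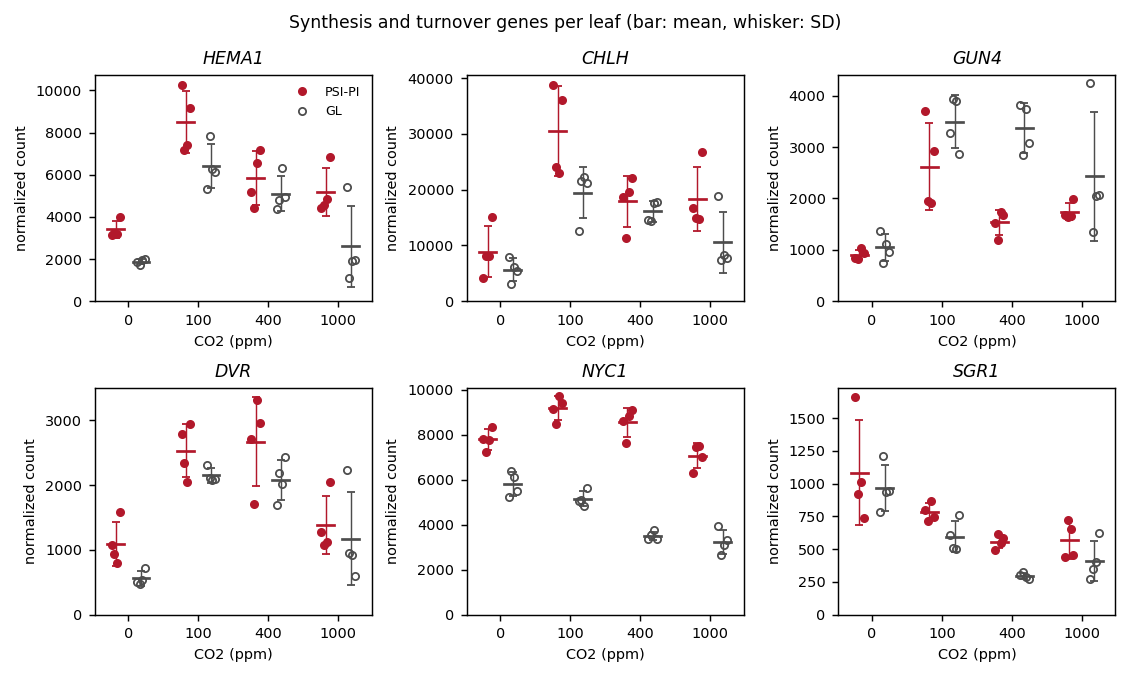
Normalized counts (vertical axes, linear) of HEMA1, CHLH, GUN4, DVR, NYC1 and SGR1 in each leaf by CO2 level (horizontal axes), PSI-PI as filled points left of GL as open points; bars are means and whiskers SD, n = 4. In GL the 4 synthesis genes are lower at 0 than at 400 ppm, and at 1000 ppm GL replicate 1 lies apart from the other GL leaves, for HEMA1 at 5426 against 1107 to 1971.

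At 100 ppm CO2 in GL, 5 of the 34 genes rose relative to 400 ppm and 6 fell, against 17.4% and 17.1% of all tested genes. None was a DEG in limma, against 4.26% and 3.89% higher and lower DEGs among all tested genes. All leaves at 100 ppm were above those at 400 ppm in 8 genes and below in 6, against 20.3% and 19.6%. SGR1, NYC1 and HO1 were among the genes that rose, with CHLM and FLU. HO1 had 3943, 3261, 3119 and 3580.1 at 100 ppm and 2081, 2202, 1989.6 and 2013 at 400 ppm, a log2 difference of 0.74 ± 0.09 (limma SE, adjusted p = 3.58e-07). SGR1 had 609, 507, 502 and 757 at 100 ppm and 300.5, 323, 286 and 272 at 400 ppm, with a log2 difference of 0.99 ± 0.22 (limma SE, adjusted p = 0.000757) just under that of a DEG. CHLM rose by 0.70 ± 0.15 (limma SE, adjusted p = 0.000766). The genes that fell were ERS, GSA1, HEMC, HEMF1, CHLD and PORB, by between 0.40 and 0.61 on the log2 scale. The call of HEMF1 was lost whichever of the 8 leaves was dropped, that of CHLD with any but GL replicate 3 at 100 ppm, that of FLU with any but GL replicate 1 at 400 ppm and that of PORB with any but GL replicates 1 and 2 at 100 ppm (adjusted p up to 0.189, for FLU). HEMC lost its call without GL replicate 1 at 100 ppm or GL replicate 4 at 400 ppm. The count was 7 without GL replicate 1 or 4 at 100 ppm or GL replicate 2 or 3 at 400 ppm, and 6 without GL replicate 4 at 400 ppm. The leaf markers summed to 1281463 to 1419249 at 100 ppm and 904388 to 956968 at 400 ppm and the guard cell markers to 423 to 584 at 100 ppm and 659 to 733 at 400 ppm, and their part was not tested. Taken singly, RBCS1A, KAT1 and MYB60 overlapped, while RCA, LHCB1.3, GAPA and FAMA did not.

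At 1000 ppm CO2 in GL, 2 genes fell and 0 rose relative to 400 ppm, against 0.2% and 0.177% of all tested genes. Both were glutamyl-tRNA reductase genes, and HEMA1 was a DEG (0.126% of all tested genes fell that far). All leaves at 1000 ppm were above those at 400 ppm in 1 gene and below in 1, HEMA2, against 4.67% and 3.96%. HEMA2 had 484, 411, 373 and 331 at 1000 ppm and 556, 569, 546 and 555 at 400 ppm, a log2 difference of -0.49 ± 0.10 (limma SE, adjusted p = 0.0197). HEMA1 had 5426, 1107, 1927 and 1971 at 1000 ppm, where 3 leaves were below and 1, replicate 1, within the range at 400 ppm, 4359.7, 4793, 6303 and 4935. Its log2 difference was -1.21 ± 0.27 (limma SE, adjusted p = 0.0399). The median over the 34 genes was -0.36, and 31 of them had a negative value. Without GL replicate 1 at 1000 ppm, 13 genes fell and 0 rose, with HEMA1 at -1.65 (adjusted p = 3.53e-05) and DVR at -1.36 (adjusted p = 0.00298). Besides HEMA1, HEMA2 and DVR they were HEME1, HEMG1, GUN4, CHLI1, CHLI2, CHLM, PORB, PORC, CAO and CHLP. The count was 0 without GL replicate 3 or 4 at 1000 ppm or GL replicate 2, 3 or 4 at 400 ppm, and 1 without GL replicate 2 at 1000 ppm or GL replicate 1 at 400 ppm.

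GL replicate 1 at 1000 ppm stood above the other 3 GL leaves of that group by a wide gap in several of the genes. CHLH was 18818 in replicate 1 and 7344 to 8288 in the others, and CHLP was 25256 in replicate 1 and 12484 to 13915 in the others. Over all genes, the median SD of its log2 differences was 0.624 from the GL leaves at 400 ppm and 0.701 from the other leaves of its own group. The median SD of the 34 genes was 0.38 on the log2 scale in GL at 1000 ppm and 0.12 to 0.23 in the other 7 groups. The leaf markers summed to 432741 to 850029 at 1000 ppm and 904388 to 956968 at 400 ppm in GL, all leaves lower at 1000 ppm. Taken singly, only LHCB1.3 did not overlap, at 170366 to 342867 and 379387 to 475529, while RBCS1A, RCA and GAPA did. The guard cell markers summed to 863 to 1113 at 1000 ppm and 659 to 733 at 400 ppm, all leaves higher. Of these, KAT1 overlapped and MYB60 and FAMA did not. The part of these markers was not tested. No label sets this sample apart, and its part in the spread is given by the counts without it.

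At 0 ppm in PSI-PI-treated leaves, 17 genes fell and 2 rose relative to 400 ppm, against 11% and 9.99% of all tested genes. CHLH and DVR were DEGs (2.36% and 2.31% of all tested genes were lower and higher DEGs). In 1 gene all leaves at 0 ppm were above those at 400 ppm and in 9 all were below, against 8.22% and 8.1%. The 5 magnesium chelatase genes fell here too. Of the 9 later genes 4 fell (CHL27, DVR, CHLG and CHLP), and the POR genes did not pass. DVR had 1067, 929, 798 and 1579.6 normalized counts at 0 ppm and 2707, 1705, 3305 and 2955 at 400 ppm, a log2 difference of -1.29 ± 0.27 (limma SE, adjusted p = 0.00216). CHLH had 4125, 8137, 8166 and 15138 at 0 ppm and 18670.3, 11419, 19525 and 22049.6 at 400 ppm, where 1 leaf at 0 ppm, replicate 4, overlapped, and its log2 difference was -1.12 ± 0.34 (limma SE, adjusted p = 0.0197). FC2 fell, with a log2 difference of -0.51 ± 0.13 (limma SE, adjusted p = 0.00986), while FC1 rose, with 0.44 ± 0.12 (limma SE, adjusted p = 0.0125). SGR1 had 1662, 921, 1015 and 736 at 0 ppm and 493, 613, 543 and 582 at 400 ppm, all leaves higher at 0 ppm, a log2 difference of 0.89 ± 0.22 (limma SE, adjusted p = 0.00536). NYC1 did not pass, with 7805, 7210.1, 7757 and 8358 at 0 ppm and 8616, 7625, 8839 and 9074 at 400 ppm, nor did PORB, with 13019, 8165, 7966 and 9803 at 0 ppm and 16029.7, 8561, 12623 and 11090.2 at 400 ppm. The median over the 34 genes was -0.39.

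Of the 19 calls at 0 ppm in PSI-PI, 7 held when any 1 leaf was dropped, those of GSA2, HEMC, HEME1, CHLI2, CHLD, DVR and SGR1. The count was 8 without PSI-PI replicate 1 at 0 ppm, and 11, 9 and 10 without PSI-PI replicates 1, 3 and 4 at 400 ppm. Without PSI-PI replicate 2 at 400 ppm, the lowest leaf of its group by a wide gap for HEMB1, HEME1, HEMF1 and CHLI1, it was 24. A fit of only the 8 samples called 3. The summed leaf markers were 523834 to 897438 at 0 ppm and 802886 to 1243608 at 400 ppm in PSI-PI and the guard cell markers 463 to 591 at 0 ppm and 597 to 729.9 at 400 ppm, and their part was not tested. Of the guard cell markers, KAT1 and MYB60 overlapped and FAMA did not.

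At 100 ppm in PSI-PI-treated leaves, 4 genes rose relative to 400 ppm and 2 fell, against 11.2% and 11.4% of all tested genes. All leaves at 100 ppm were above those at 400 ppm in 8 genes and below in 2, against 16% and 13.8%. GUN4, CHL27 and CAO, the oxygenase that makes chlorophyll b, rose together with HO1. CAO had 3508, 3012, 3348 and 3816 at 100 ppm and 2079, 1703, 2189 and 2216 at 400 ppm, a log2 difference of 0.74 ± 0.17 (limma SE, adjusted p = 0.00263). GUN4 had 3692, 1952, 1917 and 2920.0 at 100 ppm and 1523, 1191, 1745 and 1685 at 400 ppm, a log2 difference of 0.73 ± 0.24 (limma SE, adjusted p = 0.0265). ERS and HCAR fell, with log2 differences of -0.41 ± 0.10 (limma SE, adjusted p = 0.00328) for ERS and -0.55 ± 0.14 (limma SE, adjusted p = 0.00478) for HCAR. GUN4 and CHL27 lost their calls without PSI-PI replicate 1 or 4 at 100 ppm or PSI-PI replicate 1 or 2 at 400 ppm (adjusted p up to 0.117), and under quantile normalization 2 genes rose and 5 fell. The leaf markers summed to 1485149 to 2025373 at 100 ppm and 802886 to 1243608 at 400 ppm. The guard cell markers summed to 437 to 559 at 100 ppm and 597 to 729.9 at 400 ppm, and the phloem markers to 4339.9 to 4775 at 100 ppm and 3332 to 3664 at 400 ppm. Taken singly, RBCS1A, KAT1, MYB60 and APL overlapped, while RCA, LHCB1.3, GAPA, FAMA and SUC2 did not. The part of these markers was not tested.

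At 1000 ppm in PSI-PI-treated leaves 1 gene, CHLM, fell relative to 400 ppm and 0 rose, against 1.01% and 0.671% of all tested genes. All leaves at 1000 ppm were above those at 400 ppm in 1 gene and below in 3, against 6.43% and 6.28%. CHLM had 4925, 4585, 4678 and 5578 at 1000 ppm and 7927, 5510.1, 8439 and 8757 at 400 ppm, a log2 difference of -0.61 ± 0.15 (limma SE, adjusted p = 0.0386), and the leaves overlapped through PSI-PI replicate 2 at 400 ppm. Without that leaf 6 genes fell, HEMA2, GSA2, FLU, CHLI2, CHLM and DVR. The call of CHLM was lost without PSI-PI replicate 1, 3 or 4 at 400 ppm or PSI-PI replicate 1, 2 or 3 at 1000 ppm (adjusted p up to 0.163), where the count was 0. It was 2 without PSI-PI replicate 4 at 1000 ppm. The guard cell markers summed to 865 to 1102 at 1000 ppm and 597 to 729.9 at 400 ppm, where FAMA overlapped and KAT1 and MYB60 did not. The trichome marker GL2 had 21.7 to 46.1 at 1000 ppm and 53.8 to 103 at 400 ppm. The part of these markers was not tested.

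**Figure D4:**
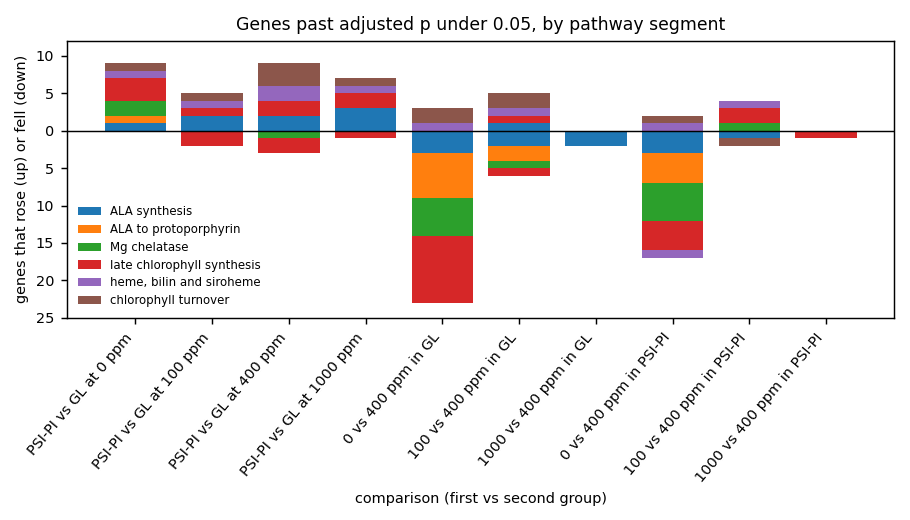
Number of the 34 genes that rose (bars up) or fell (bars down) in each of the 10 comparisons (horizontal axis), coloured by pathway segment. The bars run to 23 genes that fell at 0 ppm in GL and to 9 that rose with PSI-PI at 0 and at 400 ppm.

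Several steps are encoded by 2 or 3 genes, so it was asked whether genes for 1 step moved unequally. The ratio within a leaf was the difference of the 2 log2 values, taken after adding 1, so that for PORA, which had few counts, it depends on that 1 and on the scaling of the samples. Ratios of 7 pairs were compared in the 10 comparisons with exact two-sided permutation tests over 70 assignments (70 tests). The smallest p that 4 leaves against 4 allow is 0.0286, which 23 of the 70 tests reached and which became 0.087 after adjustment over the tests, so 0 passed. Reads of paralogs can be divided wrongly between them. Of the 31-base stretches of either messenger RNA at most 1.24% occur in the other. For PORA this small share does not settle the matter. In GL at 400 ppm PORA had 10.5 to 25.3 normalized counts, against 24231 to 25065 for PORB. Whether counts of PORA include reads of PORB was not tested.

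At 100, 400 and 1000 ppm PORC over PORB shifted further with PSI-PI than the other pairs except PORA over PORB. At 400 ppm the log2 ratio was -0.88 ± 0.31 in PSI-PI and -2.33 ± 0.22 in GL (SD, n = 4), a difference of 1.44 (exact permutation p = 0.0286, adjusted 0.087). At 100 ppm it was -0.62 ± 0.11 in PSI-PI and -1.88 ± 0.16 in GL, and at 1000 ppm -1.04 ± 0.45 in PSI-PI and -2.15 ± 0.17 in GL, each time with all PSI-PI leaves above all GL leaves. At 0 ppm the leaves overlapped, with -0.93 ± 0.32 in PSI-PI and -1.51 ± 0.29 in GL. FC1 over FC2 went lower with PSI-PI, at -2.38 ± 0.24 in PSI-PI and -1.21 ± 0.20 in GL at 400 ppm, and the leaves did not overlap at 100 and 400 ppm. For GSA1 over GSA2 the leaves did not overlap at 100, 400 and 1000 ppm, with differences of -0.24, -0.53 and -0.23 between PSI-PI and GL. HEMA2 over HEMA1 was -1.67 ± 0.15 at 0 ppm and -3.18 ± 0.24 at 400 ppm in GL, a difference of 1.51. At 0 ppm the PSI-PI leaves were all below the GL leaves in this ratio, by -0.68. The ratio in PSI-PI was -2.34 ± 0.13 at 0 ppm and -2.86 ± 0.20 at 400 ppm, a difference of 0.52. HEME1 over HEME2 overlapped in all 10 comparisons. CHLI2 over CHLI1 did not overlap at 400 ppm, with a difference of 0.26 between PSI-PI and GL, and for PORA over PORB the leaves did not overlap at 400 and 1000 ppm, with differences of -1.87 and -1.71.

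**Figure D5:**
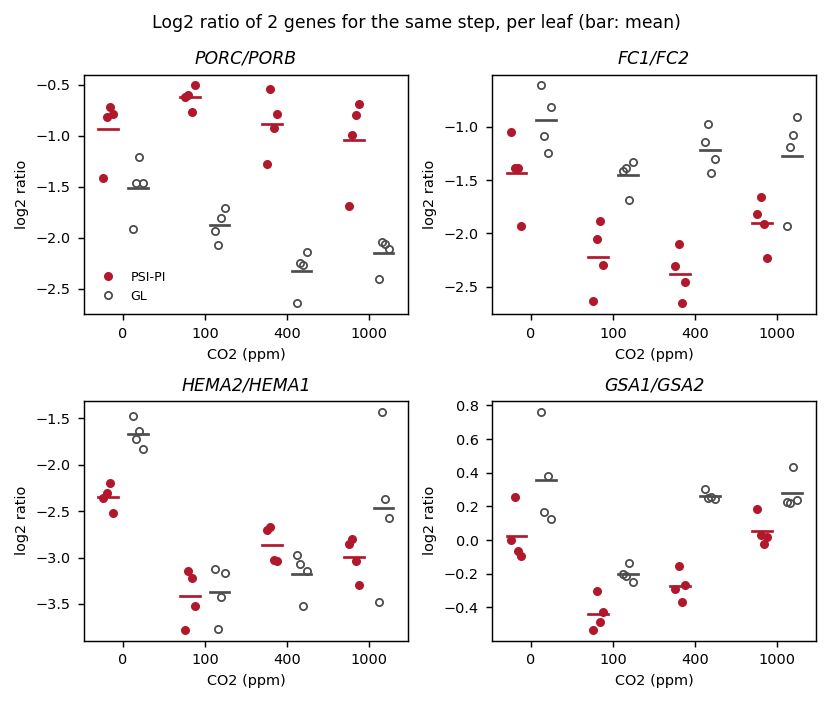
Log2 ratio (vertical axes) of the normalized counts of 2 genes for the same step in each leaf, by CO2 level (horizontal axes), PSI-PI as filled points left of GL as open points, bars at the means. For PORC/PORB the PSI-PI leaves lie above the GL leaves at 100, 400 and 1000 ppm, with means of -0.88 and -2.33 at 400 ppm.

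Per kilobase of the longest annotated messenger RNA, the genes differed widely in level. In GL at 400 ppm CHL27 was the highest, at 19459 ± 2361 normalized counts per kilobase (SD, n = 4), and PORB, at 14957 ± 223, and CHLP, at 10670 ± 398, came next. The ranges of these 3 did not overlap. PORC was at 2760 ± 364 and PORA at 9.96 ± 3.99, the lowest of the 34. Next above it were HCAR, at 159 ± 8.39, and SGR1, at 171 ± 12.7, whose ranges overlapped. Of the chelatase genes CHLI1 was at 5353 ± 712, CHLH at 3387 ± 379.5 and CHLD at 1537 ± 114. Values per kilobase assume that the reads came from the longest messenger RNA.

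Of the 34 genes 2 passed in none of the 10 comparisons in limma, HEMD and UPM1, the methyltransferase that leads to siroheme. HEMD ranged from 398 to 834 normalized counts over the 32 samples. UPM1 ranged from 629.9 to 2263, and both had positive fold changes with PSI-PI at all 4 CO2 levels, between 0.10 and 0.41 on the log2 scale.

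A list of 24 other genes of these pathways was looked at beside the 34, and 23 of them were analysed. With PSI-PI, 8 rose and 1 fell at 400 ppm, where 13.8% and 11% of all tested genes did. At 0 ppm 4 rose and 0 fell (4.51% and 2.53% of all genes), at 100 ppm 3 rose and 1 fell (6.64% and 3.13%) and at 1000 ppm 4 rose and 0 fell (6.89% and 3.57%). At 0 ppm in GL 5 rose and 6 fell relative to 400 ppm (17.2% and 16.6% of all genes), and the 5 that rose were all turnover genes, NOL, PPH, PAO, SGR2 and CLH2. Other genes listed under turnover did not rise. SGRL was at 788 to 1079 at 0 ppm and 1096 to 1481 at 400 ppm. BCM1 was at 2851 to 4220 at 0 ppm and 6231 to 7006 at 400 ppm, and the leaves of RCCR and CLH1 overlapped. Relatives of HO1 did not move alike. HO2 was at 242 to 307 at 0 ppm and 424 to 524 at 400 ppm. HO3 was at 894 to 1241 at 0 ppm and 831 to 854 at 400 ppm, and HO4 overlapped. SGR2, a relative of SGR1, had 193, 570.2, 578 and 281 normalized counts at 0 ppm and 30.9, 79.8, 76 and 48.5 at 400 ppm, a log2 difference of 2.71 ± 0.50 (limma SE, adjusted p = 0.000168). PPH, the pheophytinase that removes phytol from pheophytin, had 2189, 4998, 2497 and 2678 at 0 ppm and 1171, 1409, 1288 and 1144 at 400 ppm, a log2 difference of 1.23 ± 0.27 (limma SE, adjusted p = 0.000954). In both genes every leaf at 0 ppm was above every leaf at 400 ppm. At 100 ppm in GL 5 rose and 2 fell (17.4% and 17.1% of all genes), and at 1000 ppm in GL 0 passed in limma, with an unadjusted p under 0.05 in 4. In PSI-PI 1 rose and 4 fell at 0 ppm (9.99% and 11% of all genes), 4 rose and 2 fell at 100 ppm (11.2% and 11.4%) and 0 passed in limma at 1000 ppm, with an unadjusted p under 0.05 in 4. In the interaction between 0 and 400 ppm, BCM1, which favours chlorophyll synthesis over breakdown, was the 1 gene that passed, with a PSI-PI response of 0.11 ± 0.13 at 0 ppm and -0.60 ± 0.13 at 400 ppm and a difference of 0.71 ± 0.18 (limma SE, adjusted p = 0.0271). NOL, PAO, CLH2 and BCM1 are named because of these counts, and SGRL, RCCR, CLH1, HO2, HO3 and HO4 beside them, all after their values were seen.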

How the data were processed

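Leaf RNA of 32 samples was sequenced. The deposited values are normalized counts per gene, a depth-scaled signal that the authors made with Salmon 0.12 (TAIR10 transcripts), tximport and DESeq2. They were not whole in 95.0% of cases, so no count test was run, and their precision was judged from the spread of the 4 samples per group. Groups came from the labels. All columns were mapped to a sample. Values of the 21469 of 21525 genes with a sum of at least 10 were compared as log2(value + 1) with limma 3.58.1 (R 4.3.3) in 1 model of 8 group means with a variance trend, for 10 comparisons and 3 interactions, with Benjamini-Hochberg adjustment over all genes of a comparison. Fold changes on this scale understate those of low genes. The fit was tested on simulated data. Alternatives were other filters, pseudocounts of 0.5 and 5, quantile normalization, no variance trend, a replicate block, only the samples compared and each replicate left out. Values per leaf were to be given for genes that passed with a log2 fold change of at least 1 in size in any comparison, for the gene with the largest fold change in each segment and for the paralog pairs. Other genes for which they are given were chosen after their values were seen. The 34 genes, the lists and the tests were chosen with earlier results of these data known. Positions and upstream bases are from RefSeq TAIR10.1, in which all 34 genes were found. Figures were drawn with matplotlib 3.10.9 in Python 3.11.15.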

Additional observations from a re-analysis of the deposited data

Results flagged for a closer look

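In 21 of 272 sets of 4 leaves (34 genes in 8 groups), 1 leaf lay apart from the other 3 by a gap above Dixon's 95% critical value, where chance gives about 1 in 20 sets. GL replicate 1 at 1000 ppm was high for HEMD, at 727 normalized counts against 438 to 466 in the other leaves, for CHLH, at 18818 against 7344 to 8288, and for CHLP, at 25256 against 12484 to 13915. PSI-PI replicate 2 at 400 ppm was low for HEMB1, at 1762 against 2847 to 3041, for HEME1, at 1113 against 1766 to 1890.03, for HEMF1, at 3892 against 4567 to 4709.6, and for CHLI1, at 7711 against 9661 to 10019.8. GL replicate 1 at 100 ppm was high for FLU, at 1772 against 1311 to 1339, for DVR, at 2315 against 2070.2 to 2109, and for PORC, at 5129 against 4519 to 4598. The same leaf was low for CHLH, at 12585 against 21210.4 to 22269.8.

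At 0 ppm, PSI-PI replicate 4 was high for HEMA1, at 4002 against 3155 to 3256, and low for FC1, at 1156 against 1425 to 1481. PSI-PI replicate 1 was low for UPM1, at 919.8 against 1527 to 1667. GL replicate 1 was high for HEMB1, at 2109 against 1417 to 1443, and for FC1, at 1587 against 1319.8 to 1349. PSI-PI replicate 4 at 1000 ppm was high for GUN4, at 1985 against 1639.6 to 1680.03, and for CHLI2, at 1315 against 1107 to 1133. GL replicate 4 at 400 ppm was high for HEME1, at 2053 against 1738 to 1762, and for CHLD, at 4513 against 3897 to 3933. HEMG1 in GL at 100 ppm had 1 low leaf, replicate 2, at 2851 against 2862 to 2864, a gap that is small beside the values.

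The PSI-PI response differed between 0 and 400 ppm for PORB, by 1.27 ± 0.27 on the log2 scale (SE, adjusted p = 0.00728), and for NYC1, by -0.86 ± 0.14 (SE, adjusted p = 0.000682), both by the interaction test in limma. For PORB the 2 treatments were alike in range at 0 ppm, at 7966 to 13019 in PSI-PI and 7476 to 9139 in GL. For NYC1 all PSI-PI leaves were above all GL leaves at both levels.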

How the results depend on the processing

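No log2 fold change of the 34 genes that passed changed direction under an alternative that was run, and of the 103 calls (interactions included) 54 were kept under each of them. Limits of these data are the 4 leaves per group, the spread of GL at 1000 ppm, that of PSI-PI at 0 ppm and the low level of PORA. PSI-PI replicates 1, 3 and 4 at 0 ppm were nearer to another group than to their own. The median SD over all tested genes was largest in that group, at 0.387 on the log2 scale, with 0.313 in GL at 0 ppm next. Depth per sample is not known here, because the totals are of counts already scaled for depth. A fit of only the samples compared called 1 gene with PSI-PI at 0 ppm, 3 with PSI-PI at 1000 ppm, 0 at 1000 ppm in GL, 3 at 0 ppm in PSI-PI, 0 at 1000 ppm in PSI-PI and 1 in the interaction between 100 and 400 ppm. Without the variance trend 1 gene passed at 1000 ppm in GL, and with quantile normalization 0 passed at 1000 ppm in PSI-PI; the cause was not tested. With each leaf left out in turn, the count of the 34 genes that passed was 3 to 10 with PSI-PI at 0 ppm, 4 to 7 at 100 ppm, 10 to 15 at 400 ppm and 6 to 13 at 1000 ppm. In GL it was 25 to 26 at 0 ppm, 6 to 8 at 100 ppm and 0 to 13 at 1000 ppm, and in PSI-PI 8 to 24 at 0 ppm, 4 to 6 at 100 ppm and 0 to 6 at 1000 ppm. For the interactions it was 2 to 3 at 0 ppm and 0 at 100 and 1000 ppm. Filters on low values and pseudocounts left each count within 1.5 times. Samples of a number did not deviate together (mean correlation of -0.134 to 0.108 over the 10 comparisons), so the numbers were not taken as pairs. With a replicate block 2 genes passed at 1000 ppm in PSI-PI, and the other counts were 11, 7, 13 and 9 with PSI-PI at 0, 100, 400 and 1000 ppm, 26, 9 and 2 in GL at 0, 100 and 1000 ppm and 19 and 6 in PSI-PI at 0 and 100 ppm.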
